A study of Mus musculus with 5 samples.

Results

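The 37 genes described here encode the subunits of the integrins and the chains of the laminins. They are the rows of the RefSeq gene table named Itga, Itgb, Lama, Lamb or Lamc with a subunit suffix, 37 of 18307 genes: 18 integrin alpha subunits, 8 integrin beta subunits, 5 laminin alpha chains and 6 laminin beta or gamma chains. Their transcripts were counted by RNA-seq in ventricles of mouse embryos of the outbred CD-1 stock at embryonic day (E) 10.5. In the caffeine group (3 libraries) the pregnant dams received caffeine, 20 mg/kg a day by injection, between E6.5 and E9.5. In the vehicle group (2 libraries) the dams received 0.9% NaCl over the same days. Embryos were exposed through the dam, and each library came from total RNA of a pool of ventricles from embryos that shared dams, so single embryos cannot be seen and p-values measure the spread between these pools.

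Integrins are cell surface receptors made of 1 alpha and 1 beta subunit, and they tie the actin cytoskeleton to the matrix outside the cell or to other cells. Laminins are cross-shaped trimers of an alpha, a beta and a gamma chain that polymerise into the basement membrane, the sheet on which endothelium, epicardium and muscle rest. In the forming ventricle, laminins and integrins lie between the endocardium, the cardiac jelly, the myocardium and the epicardium, and cardiomyocytes use integrins as anchors at the cell border.

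RefSeq gene totals were 23530555, 23002149 and 21713381 counts in caffeine libraries 1, 2 and 3 and 25048134 and 22397199 counts in vehicle libraries 1 and 2. Markers of heart muscle (9 genes, among them Myh7, Tnnt2 and Actn2) summed to 21513 to 24899 CPM (counts scaled to library size) in caffeine and 26686 to 28157 CPM in vehicle. The sums did not overlap between the groups, while Tnnt2 and Actn2 taken singly did. Of the 9 markers, 4 did not overlap, all below vehicle, beside 9.27% of all tested genes. A negative fold change was found for 7 of the 9, and a positive one for Nppa and Nkx2-5. Endocardial and endothelial markers summed to 1409 to 1623 CPM in caffeine and 1554 to 1649 CPM in vehicle. In a bulk library, fewer cells of a type and less RNA per cell cannot be told apart, and the part of these sums in the values below was not tested.

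Of the 37 genes, 32 had enough counts to be tested (15 alpha subunits, 6 beta subunits and all 11 laminin chains). Itgad, Itgae, Itgax, Itgb6 and Itgb7 were not tested. These are integrin subunits of leukocytes and, for Itgb6, of epithelia, and no library held more than 9 counts of any of them. Itgax in vehicle library 2 and Itgb6 in caffeine library 3 had 0 counts, which allows up to 3 counts, or 0.137 and 0.136 CPM, by counting error alone. Itgad in vehicle library 1 was estimated at practically 0.

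Which integrins and laminins a ventricle at this stage transcribes was described per length, as counts scaled to library size and to kilobases of transcript (RPKM), since a raw count favours long genes. A level of this kind could be computed for 36 of the 37 genes, all but Itga10, for which no transcript length was matched. For Itgae a length was matched for 1 of its 2 transcripts, and the other held 66.7 to 100% of its few counts, so its level is not used. Among the beta subunits the transcript of Itgb1, the common partner of most alpha subunits, stood far above the others. Itgb1 had 233, 228 and 187 RPKM in caffeine libraries and 240 and 243 RPKM in vehicle libraries, and made up 86.6 to 88.5% of the summed beta subunit RPKM in caffeine and 86.9 to 89.3% in vehicle. Itgb5, a partner of the alpha V subunit that binds vitronectin, came next at 24.8, 20.6 and 19.7 RPKM in caffeine and 24.6 and 19.9 RPKM in vehicle. Itgb3, which pairs with the alpha V or the platelet alpha subunit, had 5.48, 5.38 and 6.02 RPKM in caffeine and 9.26 and 5.998 RPKM in vehicle. The order of these 3 was the same in each of the 5 libraries. Itgb8 had a mean over the 5 libraries of 2.10 RPKM with its RefSeq length of 3096 bases. The same counts gave 0.775 RPKM with the longest annotated transcript, of 8403 bases. Ensembl counts over the RefSeq length gave 7.08 RPKM, which would rank above Itgb3. The values of 0.775 and 7.08 RPKM each pair counts of 1 gene model with the length of another, so they do not settle the rank of Itgb8.

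Itga6 and Itga5 were the leading alpha subunits and could not be ranked against each other. Itga6, a laminin receptor subunit, had 67.9, 70.1 and 79.4 RPKM in caffeine and 73.5 and 81.2 RPKM in vehicle. Itga5, the classical fibronectin receptor subunit, had 71.4, 73.1 and 76.9 RPKM in caffeine and 76.2 and 73.4 RPKM in vehicle. Itgav, which encodes the alpha V subunit of receptors for vitronectin, fibronectin and latent TGF-beta, had 18.3, 22.5 and 17.9 RPKM in caffeine and 17.7 and 24.0 RPKM in vehicle. Its range lay below those of Itga5 and Itga6 and above those of all lower alpha subunits. Itga9 (10.1 to 14.8 RPKM over the 5 libraries), Itga3 (9.13 to 12.6 RPKM) and Itga1 (6.07 to 11.03 RPKM) followed with overlapping ranges. With the longest annotated transcript the mean over the 5 libraries was 103 in place of 74.4 RPKM for Itga6, and 4.91 in place of 8.998 RPKM for Itga1. That transcript has 4310 bases for Itga6, against the 5946 used above, and 10967 bases for Itga1, against 5982. The counts belong to the RefSeq models, so these alternative values pair counts with unlike lengths and do not rank Itga6 above Itga5. Itga7, the laminin receptor subunit of mature muscle, had 0.174 to 0.258 RPKM, in a tissue rich in heart muscle transcripts.

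The laminin chains were dominated by 1 gene in each class: Lama4, the alpha chain of vessel and muscle basement membranes, Lamb1 and Lamc1. Lama4 had 63.6, 57.0 and 52.4 RPKM in caffeine and 61.5 and 65.9 RPKM in vehicle. Lamb1 had 78.5, 67.0 and 63.4 RPKM in caffeine and 70.2 and 74.9 RPKM in vehicle, and Lamc1 had 73.7, 75.1 and 73.6 RPKM in caffeine and 74.0 and 90.4 RPKM in vehicle. These 3 chains were thus of similar level per length, and the ranges of Lamb1 and Lamc1 overlapped. Below them, Lama5, an alpha chain of epithelial and vascular basement membranes, averaged 6.25 RPKM over the 5 libraries, and Lamb2 averaged 10.9 RPKM. Lama2, the alpha chain of adult muscle (1.43 RPKM), and Lama1, the alpha chain of the earliest embryonic basement membranes (1.35 RPKM), were lower, and their ranges overlapped. Lama3, an epithelial chain, averaged 0.106 RPKM, with Lamb3, its beta chain partner in skin, at 0.314 RPKM.

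**Figure D1:**
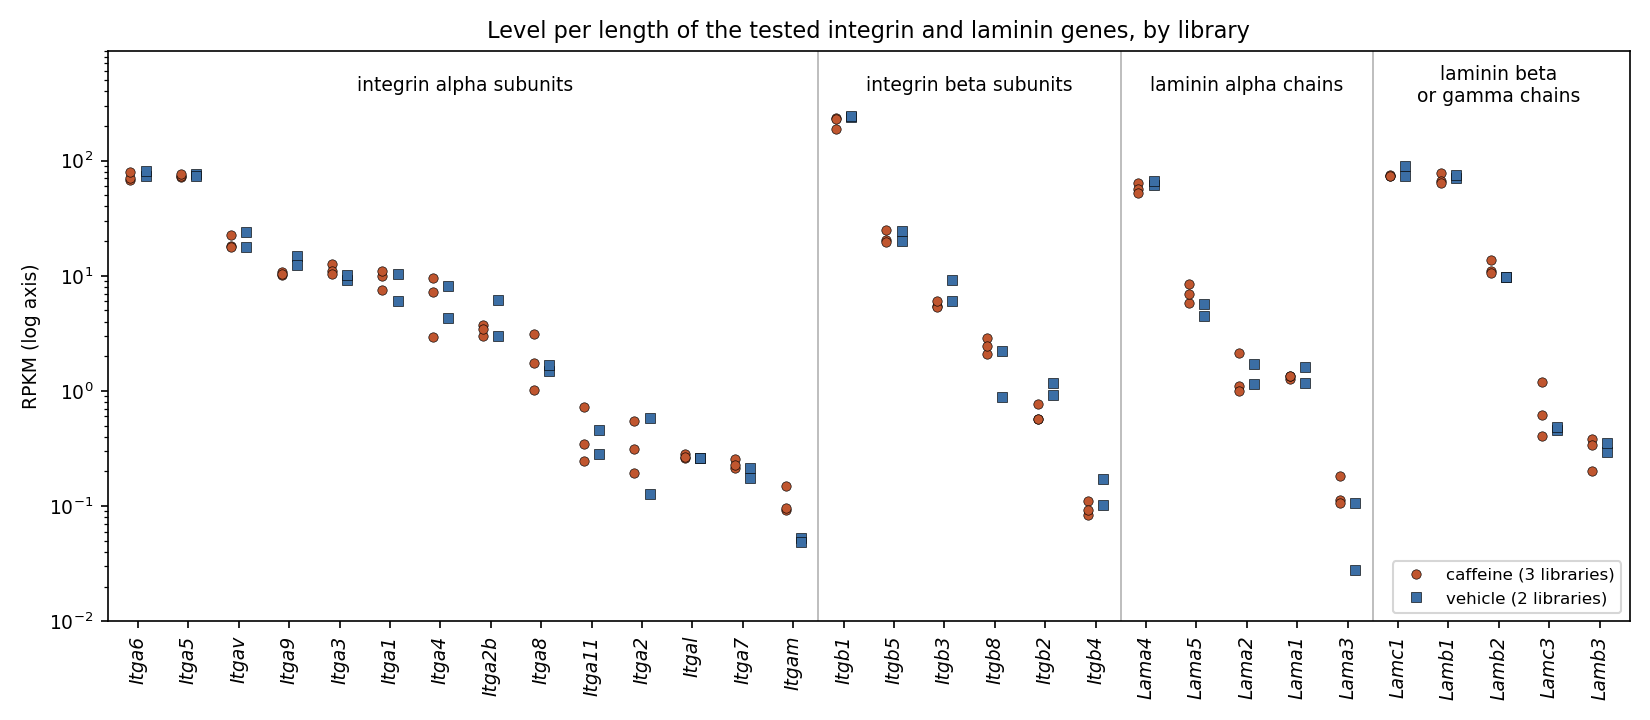
Level per length of 30 tested genes with a matched transcript length, in RPKM on a log axis; each point is 1 library, with caffeine as circles and vehicle as squares. Itgb1 lies highest at 187 to 243 RPKM, and Lama4, Lamb1 and Lamc1 lie far above the other laminin chains of their class.

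Whether caffeine altered these genes was asked with edgeR's quasi-likelihood test over all 13829 tested genes, with Benjamini-Hochberg adjustment. No integrin or laminin gene passed an adjusted p (FDR) of 0.05, with edgeR, DESeq2 or limma-voom. Among all genes, 1 passed with edgeR (0.00723% of genes tested). The adjusted p values of the 32 genes ran from 0.912 to 0.9995. At an unadjusted p under 0.05 there were 4 genes, 1 higher in caffeine (Lama5) and 3 lower (Itgb3, Itgb2 and Itga9), beside 5.2% of all tested genes (3.13% higher, 2.07% lower). That count was 1 without caffeine library 2, a fit for which the share of all tested genes is not given here. The fold changes were balanced: 16 were positive and 16 negative, and their median was -0.0008 on the log2 scale, against 0.0127 over all genes tested.

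In 8 of the 32 genes the 3 caffeine libraries did not overlap the 2 vehicle libraries in CPM, beside 20.4% of all tested genes. Itga3, Itgal, Itgam, Lama5 and Lamb2 lay above vehicle in every caffeine library (11.2% of all genes), and Itga9, Itgb1 and Itgb2 lay below it (9.27% of all genes). By class, negative values were the more frequent among the beta subunits (5 of 6 tested) and positive ones among the alpha subunits (10 of 15), while the laminin chains were near even (5 of 11 positive).

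**Figure D2:**
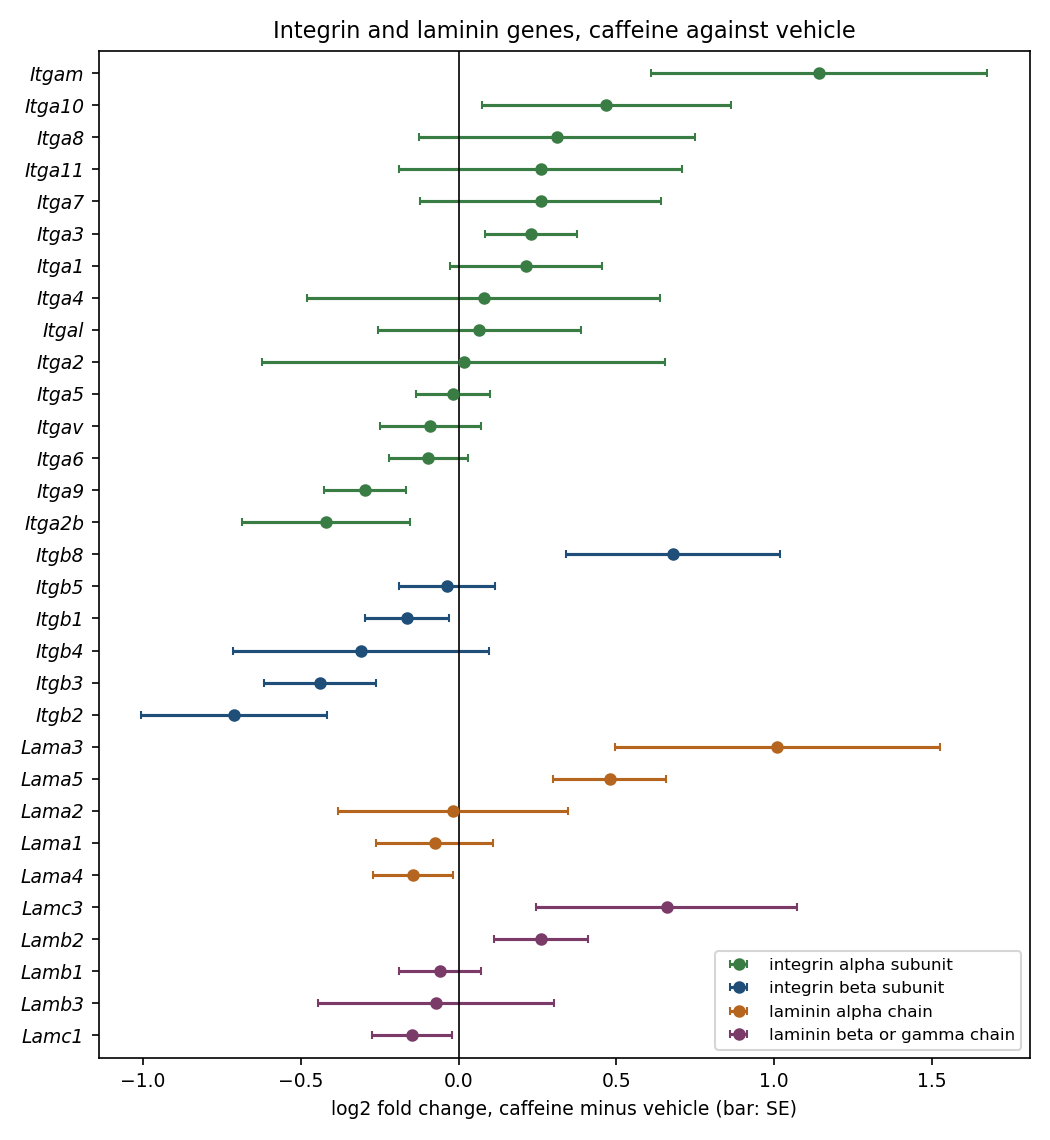
Log2 fold change of 31 of the 32 tested genes, caffeine minus vehicle, grouped and coloured by class. Bars are 1 standard error (SE), derived from the F statistic of the edgeR test. Values run from -0.71 for Itgb2 to 1.14 for Itgam, and the genes with the longest distance from 0 also have wide bars.

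The abundant receptor subunits differed little between the groups. Itgb1 (chr8:128685654-128733579, mm10, plus strand) had 975, 955 and 784 CPM in caffeine and 1005 and 1021 CPM in vehicle. Caffeine library 3 was the low one, and the log2 fold change was -0.16 (SE 0.13, edgeR unadjusted p = 0.241). Itga6 had 404, 416 and 472 CPM in caffeine and 437 and 483 CPM in vehicle (log2 fold change -0.10, SE 0.13), and Itga5 had 312, 319 and 336 CPM in caffeine and 333 and 320 CPM in vehicle (-0.02, SE 0.12). For both the groups overlapped. Itgav had 129, 159 and 126 CPM in caffeine and 125 and 169 CPM in vehicle (-0.09, SE 0.16), so the spread inside each group was wider than the gap between the group means. Itgb5, at 81.3, 67.5 and 64.5 CPM in caffeine and 80.8 and 65.1 CPM in vehicle, overlapped as well (-0.04, SE 0.15).

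Itga9, the subunit that binds tenascin C, osteopontin and VCAM1 and is known for its role in lymphatic valves, gave the narrowest caffeine values of the genes past the unadjusted threshold. It had 69.4, 72.8 and 72.2 CPM in caffeine and 94.6 and 80.9 CPM in vehicle. All caffeine libraries lay below both vehicle libraries, with a log2 fold change of -0.30 (SE 0.13, edgeR unadjusted p = 0.0420, adjusted p = 0.949). Without vehicle library 1 the value was -0.18. Its ligand genes are given with the matrix genes below, and its splice forms with the transcripts.

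Itga2b and Itgb3 encode the alpha and beta subunits of the platelet fibrinogen receptor, and in both the highest library was vehicle 1. Itgb3 (chr11:104608000-104670471, plus strand) had 31.6, 31.1 and 34.8 CPM in caffeine and 53.5 and 34.7 CPM in vehicle, with a log2 fold change of -0.44 (SE 0.18, edgeR unadjusted p = 0.0289, adjusted p = 0.941). Itga2b (chr11:102453297-102469883, minus strand) had 12.9, 10.3 and 11.8 CPM in caffeine and 21.0 and 10.3 CPM in vehicle (-0.42, SE 0.27, unadjusted p = 0.144). Vehicle library 2 lay within the range of the caffeine libraries for Itgb3 and at the low edge of it for Itga2b. Without vehicle library 1 the log2 fold change was -0.09 for Itgb3 and 0.18 for Itga2b, against -0.75 and -0.87 without vehicle library 2. The 9 megakaryocyte and platelet markers, which hold neither gene, summed to 53.7, 36.4 and 35.4 CPM in caffeine and 75.2 and 42.4 CPM in vehicle. None of the 9 was at 0 in any library, 8 of the 9 had a negative fold change, and the marker sum too was highest in vehicle library 1. The chemokine gene Pf4, the most abundant of them, had 18.8, 11.3 and 10.5 CPM in caffeine and 29.5 and 15.9 CPM in vehicle. The part of these cells in the integrin values was not tested.

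**Figure D3:**
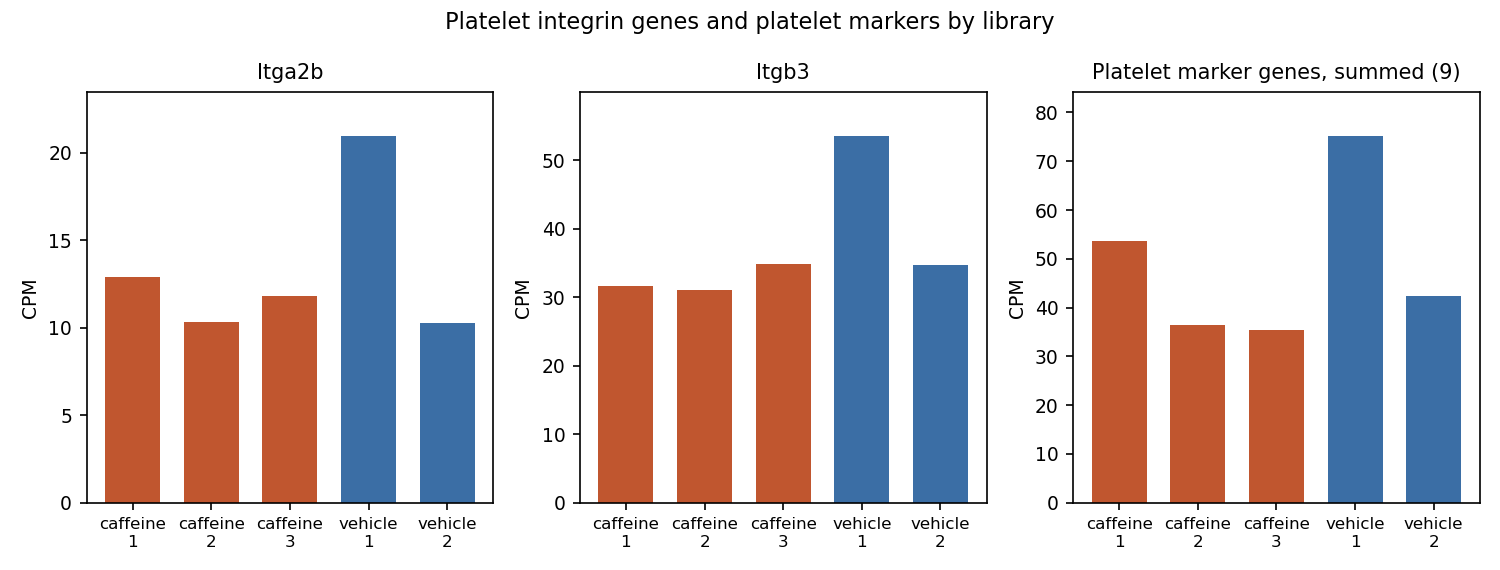
CPM of Itga2b, Itgb3 and the summed 9 platelet markers in each library, caffeine in orange and vehicle in blue, with all axes starting at 0. Vehicle library 1 is the tallest bar of each panel (21.0, 53.5 and 75.2 CPM).

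Itgam and Itgb2 encode the 2 subunits of the leukocyte receptor Mac-1, and their values went opposite ways at low counts. Itgam had 17, 10 and 10 counts in caffeine and 6 and 5 counts in vehicle (log2 fold change 1.14, SE 0.53, edgeR unadjusted p = 0.0524). Itgb2, the beta subunit of all leukocyte integrins of this family, had 53, 38 and 36 counts in caffeine and 81 and 58 counts in vehicle (2.20, 1.63 and 1.63 CPM against 3.34 and 2.64 CPM; -0.71, SE 0.29, unadjusted p = 0.0318, adjusted p = 0.943). Neither gene overlapped between the groups. Itgal, the alpha subunit of the lymphocyte receptor LFA-1, had 30 to 36 counts in all libraries. The 12 macrophage and leukocyte markers summed to 69.8, 55.8 and 53.6 CPM in caffeine and 52.1 and 45.5 CPM in vehicle, of which the lysozyme gene Lyz2 alone gave 48.0, 43.5 and 35.2 CPM in caffeine and 36.3 and 32.2 CPM in vehicle. Of these markers 9 were tested, 8 with a positive fold change and 1 higher at an unadjusted p under 0.05, and none was at 0 in any library. Ptprc, the pan-leukocyte surface gene, had 0.129 to 0.789 CPM in caffeine and 0.228 and 0.330 CPM in vehicle. The part of leukocytes in the values of Itgam and Itgb2 was not tested.

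Itgb8, whose receptor with alpha V releases active TGF-beta, had 6.48, 8.90 and 7.58 CPM in caffeine and 2.76 and 6.83 CPM in vehicle. Only vehicle library 1 stood apart, and the log2 fold change of 0.68 (SE 0.34, edgeR unadjusted p = 0.0741) was 0.16 without that library and 1.44 without vehicle library 2. On the Ensembl table it was 0.27. Itga4, the subunit of the VCAM1 and fibronectin receptor that the epicardium uses, was the most variable of the abundant genes, with 28.8, 93.9 and 70.4 CPM in caffeine and 42.5 and 79.4 CPM in vehicle. Its fold change of 0.08 had an SE of 0.56, and the 2 groups spanned much the same range. Part of Itga1 (chr13:114958081-115101964, minus strand) holds Pelo on the same strand over 1804 bases, so its counts (45.1 to 66.0 CPM in caffeine, 36.3 and 62.0 CPM in vehicle) are uncertain.

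Among the laminin chains, Lama5 (chr2:180176373-180225859, minus strand) had the smallest p of all 32 genes. It had 96.1, 65.8 and 78.8 CPM in caffeine and 50.5 and 64.8 CPM in vehicle, so the lowest caffeine library was just above the highest vehicle library. The log2 fold change was 0.48 (SE 0.18, edgeR unadjusted p = 0.0200, adjusted p = 0.912), with 0.31 without vehicle library 1 and 0.64 without vehicle library 2. Lama4 had 385, 345 and 317 CPM in caffeine and 372 and 399 CPM in vehicle (-0.14, SE 0.13). As a share of the summed RPKM of the 5 laminin alpha chains, Lama5 held 11.2, 8.84 and 11.2% in caffeine and 6.49 and 7.58% in vehicle, and Lama4 held 84.1, 87.2 and 84.8% in caffeine and 90.1 and 87.8% in vehicle. The groups did not overlap for either share, and Lama4 remained the main chain in each library. Lama5 was already apart in CPM, and both shares are parts of 1 total, so these are not separate observations. The 8 epicardial markers, which include Wt1 and Tbx18, summed to 621, 500 and 437 CPM in caffeine and 444 and 502 CPM in vehicle, and 7 of the 8 had a positive fold change. Caffeine library 1 was the highest both for Lama5 and for these markers, and their part in the Lama5 value was not tested.

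Lamb2, a beta chain of vascular and neuromuscular basement membranes, had 61.5, 59.6 and 76.7 CPM in caffeine and 55.4 and 54.6 CPM in vehicle (log2 fold change 0.26, SE 0.15, edgeR unadjusted p = 0.103). Caffeine library 3 was the high one, and there Lamb2 reached 17.6% of the summed beta chain RPKM, against 12.2 and 13.6% in the other caffeine libraries and 12.3 and 11.4% in vehicle. Lamb1 had 454, 387 and 366 CPM in caffeine and 405 and 433 CPM in vehicle (-0.06, SE 0.13). Lamc1 had 561.7, 573 and 561 CPM in caffeine and 564 and 689 CPM in vehicle (-0.15, SE 0.13), and it held 96.5 to 98.2% of gamma chain RPKM in caffeine and 98.2 to 98.5% in vehicle. For Lamb1 and Lamc1 the groups overlapped.

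The larger fold changes of the minor chains rested on single libraries. Lama3 had 45, 27 and 24 counts in caffeine and 7 and 24 counts in vehicle (log2 fold change 1.01, SE 0.52, edgeR unadjusted p = 0.0748). Vehicle library 1 alone was low, and the value was 0.33 without it and 2.21 without vehicle library 2. Lamc3, a gamma chain of neural and epithelial sites, had 7.14, 3.65 and 2.41 CPM in caffeine and 2.72 and 2.87 CPM in vehicle (0.66, SE 0.41, unadjusted p = 0.144). Caffeine library 1 alone was high, and without it the value was 0.12. Lama2 was also highest in caffeine library 1, with 20.9, 10.7 and 9.67 CPM in caffeine and 11.2 and 16.8 CPM in vehicle, and had a fold change of -0.02 (SE 0.36). Markers of foregut and hepatic endoderm, an epithelial neighbour of the heart, varied widely, with sums of 47.3, 30.1 and 9.49 CPM in caffeine and 11.7 and 138 CPM in vehicle. Vehicle library 2 was the high one for them, and 3 of the 13 were at 0 in at least 1 library.

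**Figure D4:**
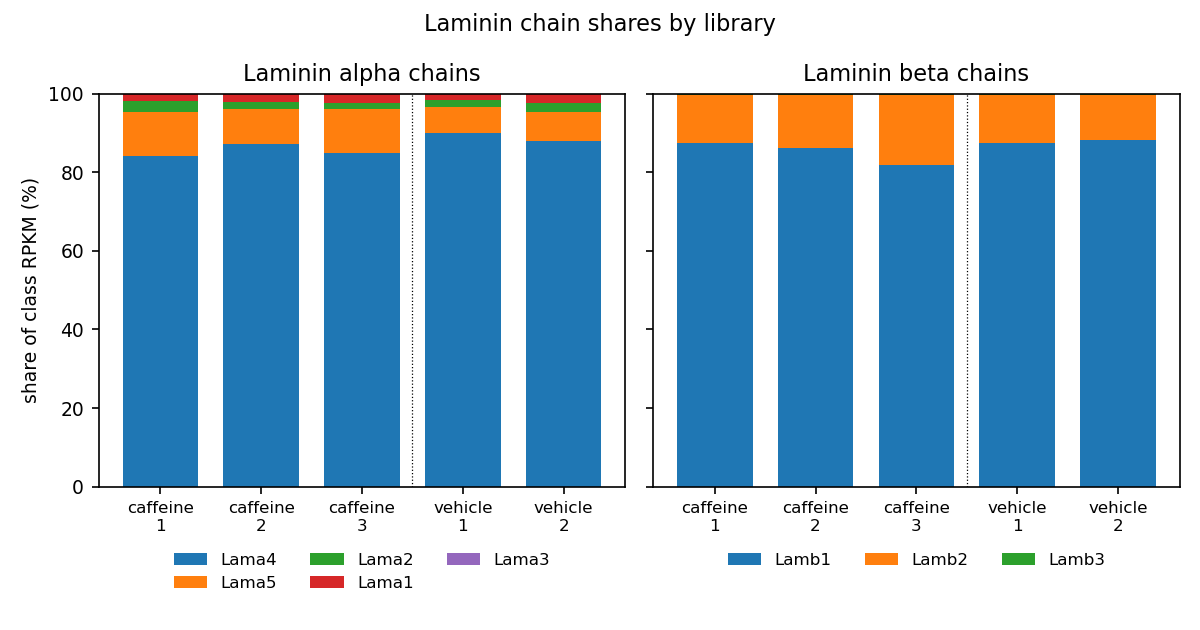
Share of each laminin alpha and beta chain in the summed RPKM of its class, in percent, 1 bar for each library with caffeine left of the dotted line and vehicle right of it. The orange Lama5 band is 8.84 to 11.2% in caffeine and 6.49 and 7.58% in vehicle.

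The matrix proteins that share the basement membrane with laminins or serve as integrin ligands were counted from a list of 35 genes, of which 33 were tested. None passed FDR 0.05 with edgeR. At an unadjusted p under 0.05, 1 was higher and 0 were lower in caffeine, near the share over all tested genes (3.13% higher, 2.07% lower), and the median log2 fold change was 0.02. The higher one was Spp1, which encodes osteopontin, a ligand of alpha V and alpha 9 integrins, and its level was low, at 0.955, 0.774 and 0.454 CPM in caffeine and 0.247 and 0.228 CPM in vehicle (log2 fold change 1.60, SE 0.53, edgeR unadjusted p = 0.0106, adjusted p = 0.832). Tnc, which encodes tenascin C, had 7.56, 7.86 and 11.1 CPM in caffeine and 6.14 and 6.74 CPM in vehicle (0.45, SE 0.22, unadjusted p = 0.0632). Nid1, the nidogen that links laminin to collagen IV, had 301, 284 and 285.4 CPM in caffeine and 308 and 377 CPM in vehicle (-0.24, SE 0.13, unadjusted p = 0.0813). Over the list, the groups did not overlap in 7 of the 33 genes (3 above and 4 below vehicle), these 3 among them, beside 20.4% of all tested genes. Spp1 is also a product of macrophages, whose marker sums are given above.

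Laminin receptors outside the integrin family were counted with the proteins that hold them in place, from a list of 10 genes, all tested: Dag1, the dystrophin-associated genes and Bcam, an immunoglobulin family receptor. None had an unadjusted p under 0.05, and their median log2 fold change was 0.02. Dag1, which encodes dystroglycan itself, had 775, 770 and 831 CPM in caffeine and 733 and 853 CPM in vehicle. The smallest p belonged to Utrn, which encodes utrophin (log2 fold change -0.32, SE 0.17), Sntb1, which encodes a syntrophin (0.48, SE 0.25), and Sgcb, which encodes beta sarcoglycan (0.16, SE 0.14).

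Inside the cell, integrin tails bind talins, kindlins and the ILK complex, and from this machinery 36 adaptor and signalling genes were listed and 35 tested. None had an unadjusted p under 0.05, and the median log2 fold change was 0.05. Tln2, the talin enriched in heart muscle, had 144, 131 and 147 CPM in caffeine and 156 and 179 CPM in vehicle (-0.25, SE 0.13, edgeR unadjusted p = 0.0726). Itgb1bp2, a muscle protein known as melusin that binds the beta 1 tail, had 33.6, 36.3 and 34.4 CPM in caffeine and 47.6 and 36.8 CPM in vehicle (-0.28, SE 0.15, unadjusted p = 0.0835). Both were below vehicle in every caffeine library, as were Parva and Rsu1 of the same list and the sum of the heart muscle markers. The part of heart muscle cells in these values was not tested. Over the list the groups did not overlap in 10 of the 35 genes (6 above, 4 below). The share over all tested genes was 20.4% (11.2% above, 9.27% below). Lims2, a partner of ILK, had 1.16, 1.25 and 1.77 CPM in caffeine and 1.07 and 0.683 CPM in vehicle (0.65, SE 0.39).

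Splice forms were examined in the RefSeq transcript table, which lists 48 transcripts of these genes. Of these, 37 were tested and none passed FDR 0.05 with edgeR, beside 0 of 18418 transcripts in all. At an unadjusted p under 0.05, 2 were higher and 1 was lower in caffeine, beside 7.36% of all transcripts. Several transcripts were listed for 9 of the genes, and in 6 of them the shift of transcripts against each other could be tested. Itga9 passed FDR 0.05 and Itgb4 did not (adjusted p = 0.115), while 3.07% of all 2897 genes so tested passed (17.7% at an unadjusted p under 0.05).

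The Itga9 result concerned a short transcript. The long one, NM_133721, begins at base 118606709 of chromosome 9 (mm10, plus strand) and has 28 exons. The short one, NM_001113514, begins inside the gene at base 118711692, with 90 bases of first exon of its own, and then joins the long one at exon 16, so that the 15 exons upstream are missing from it. Both end at base 118901003. The 300 bases around the start of the short form, from 250 before to 50 after it, are shown to locate that start (RefSeq, GRCm38.p6, chr9:118711442-118711741, plus strand), with the first 50 transcribed bases in capitals.
Itga9 short form start: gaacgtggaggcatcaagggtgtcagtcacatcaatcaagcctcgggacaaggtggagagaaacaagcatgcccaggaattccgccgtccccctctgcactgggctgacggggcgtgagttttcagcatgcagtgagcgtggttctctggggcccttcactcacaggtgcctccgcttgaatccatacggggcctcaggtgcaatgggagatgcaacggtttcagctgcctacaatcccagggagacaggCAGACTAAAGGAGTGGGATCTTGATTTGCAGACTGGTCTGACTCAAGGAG

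The short form was estimated at 106, 154 and 30.9 counts in caffeine and 645 and 390 counts in vehicle, or 6.34, 9.07 and 1.94% of the gene in caffeine and 28.1 and 22.0% in vehicle. The long form was estimated at 1565, 1539 and 1559 counts in caffeine and 1651 and 1387 counts in vehicle. All caffeine libraries thus had a lower estimate of the short form than both vehicle libraries, and the long form overlapped. The shift in usage had an edgeR adjusted p of 0.0263, while the short form by itself did not pass (log2 fold change -2.41, SE 0.51, adjusted p = 0.274). The usage call was lost without vehicle library 1 (adjusted p = 0.199), without vehicle library 2 (0.0902), without caffeine library 1 (0.0935) and with the Simes adjustment (0.0693). Without caffeine library 2 it held, and 2 of the genes passed.

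In the Ensembl transcript table, which was examined after the RefSeq result was known, the same gene gave no such shift. None of its 6 forms was matched to the short RefSeq form, and the usage test covered 2 of them, so the same transcripts were not compared. There the main form held 97.1, 98.05 and 94.8% of Itga9 in caffeine and 99.9 and 97.2% in vehicle, and the 5 other forms together had 49.3, 33.1 and 82.3 counts in caffeine and 1.65 and 49.5 counts in vehicle (adjusted p for usage = 0.645). The gene totals of the 2 tables were nearly the same, and the split of those totals between forms was not. The part of the authors' assignment of shared reads in this difference was not tested.

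**Figure D5:**
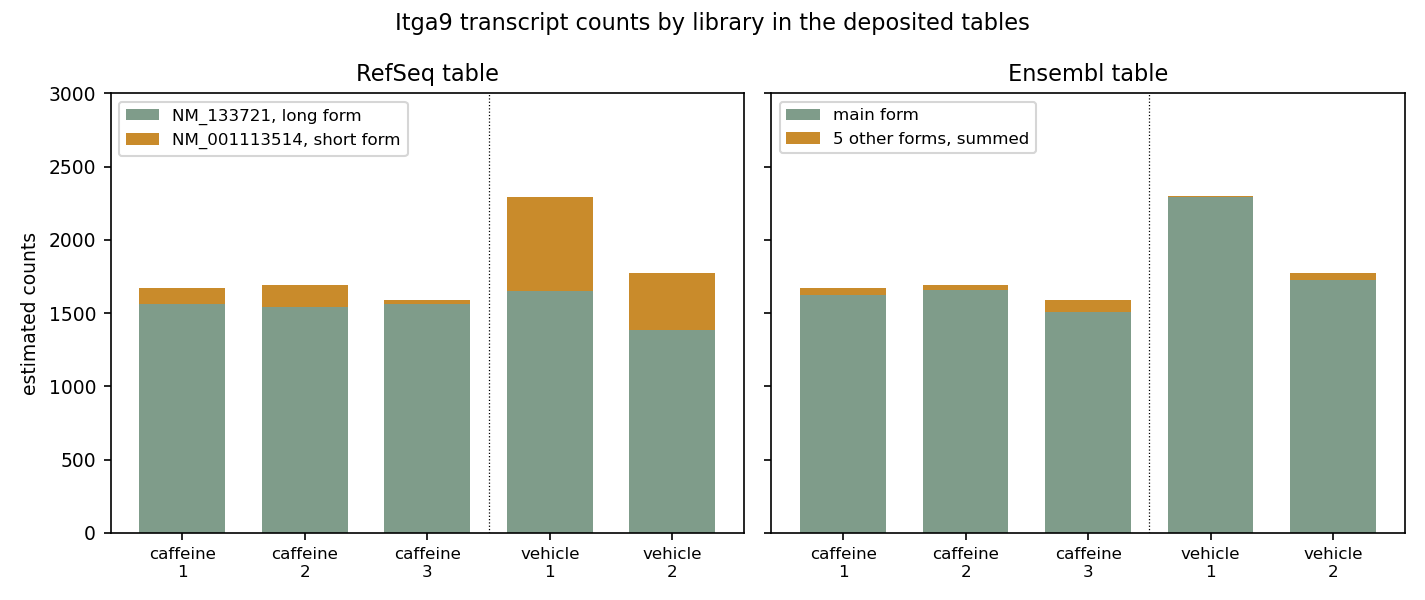
Estimated counts of Itga9 transcripts in each library, stacked, on the RefSeq table (left, long and short form) and on the Ensembl table (right, main form and the sum of 5 others). The short RefSeq form is 30.9 to 154 counts in caffeine and 390 and 645 counts in vehicle, while the other Ensembl forms are at most 82.3 counts.

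The 2 RefSeq forms of Itga6 differ in the cytoplasmic tail. NM_008397, known as the A form, holds an exon of 130 bases (exon 25 of 26, chr2:71853534-71853663, GRCm38, plus strand) that NM_001277970, the B form, skips. The 108 coding bases of that exon, chr2:71853534-71853641, are shown because of these 2 forms only A holds them, and the capitals mark the stop codon that closes the A tail.
Itga6 exon 25, coding part: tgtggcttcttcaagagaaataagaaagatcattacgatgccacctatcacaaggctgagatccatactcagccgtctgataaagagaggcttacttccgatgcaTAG
The A form made up 62.2, 63.7 and 64.5% of Itga6 counts in caffeine and 67.3 and 67.2% in vehicle. Every caffeine library was below both vehicle libraries, but the shift did not pass the usage test (edgeR unadjusted p = 0.231, adjusted p = 0.576). The Ensembl table splits Itga6 otherwise, over forms that were not matched to A and B here. There Itga6-001 held 53.7 to 56.7% in caffeine and 46.4 and 50.9% in vehicle. Itga6-005 held 33.0 to 34.2% in caffeine and 46.8 and 36.8% in vehicle (edgeR adjusted p for usage = 0.656). For Itga3, Itga7 and Itgb1, whose tails are also spliced, a single transcript each is listed on RefSeq.

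Itgb4, the beta subunit of hemidesmosomes, had 14 to 26 counts in all in each library, and its form NM_133663 was estimated at 12.3, 0.845 and 12.3 counts in caffeine and 0.663 and 0.473 counts in vehicle. Caffeine library 2 was like the vehicle libraries. With so few counts the shares of the forms carry a large counting error. Galk1, with 1658 to 2375 counts, overlaps Itgb4 on the opposite strand over 55 bases. Since the use of strand in counting is not given, the Itgb4 counts are uncertain for this reason too.

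On the Ensembl table, 152 transcripts of the genes were listed and 59 tested, and none passed FDR 0.05 with edgeR, beside 0 of 34905. At an unadjusted p under 0.05, 4 were higher and 7 lower in caffeine, beside 10.7% of all Ensembl transcripts in either direction. For usage, 13 of the genes were tested and 3 passed, Lamc1, Itgb1 and Itga3, beside 6.94% of 7540 genes. At an unadjusted p under 0.05 there were 5, beside 22.8% of those genes. The Lamc1 shift lay in a minor form, Lamc1-005, with 65.5, 2.46 and 32.9 counts in caffeine and 1296 and 253 counts in vehicle (adjusted p for usage = 0.00663). Vehicle library 1 held most of it, at 9.45% of the gene, against 0.0184 to 0.484% in caffeine and 1.67% in vehicle library 2. In Itgb1 the minor form Itgb1-002 had 445, 508 and 308 counts in caffeine and 42.4 and 125 counts in vehicle, or 1.78 to 2.28% of the gene in caffeine and 0.173 and 0.559% in vehicle (adjusted p for usage = 0.0112). In Itga3, a laminin receptor subunit of epithelia, the form Itga3-002 held 1.88, 2.96 and 4.48% of the gene in caffeine and 10.05 and 18.0% in vehicle, and Itga3-001 held 73.5, 61.7 and 71.1% in caffeine and 52.2 and 50.6% in vehicle (adjusted p for usage = 0.0141). For each of these forms the groups did not overlap. The forms were chosen after the same counts gave the usage call, so this adds no support to it. None of the 3 genes passed without vehicle library 1, where the adjusted p was 0.273, 0.0626 and 0.0736 for Lamc1, Itgb1 and Itga3. Lamc1 was also lost without caffeine library 3 (0.0678), Itgb1 without caffeine library 1 (0.0749) or 2 (0.0845), and Itga3 without vehicle library 2 (0.0919) or caffeine library 1 (0.0851). Which exons these Ensembl release 71 names stand for was not matched here.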

How the data were processed

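Total RNA went into TruSeq libraries for Illumina sequencing, per the labels. The authors deposited 4 tables of estimated counts, per gene and per transcript on RefSeq and on Ensembl release 71, per the file headers; they are not scaled between libraries. TopHat, Partek and the builds mm10 and GRCm38 appear in the submitters' processing notes. Whether counting used strand is not given in the sources used here, so overlapping genes and transcripts of 1 gene carry an assignment error. Gene ends are printed as the deposited stop minus 1.

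Estimated counts were rounded to whole numbers, filtered with filterByExpr, scaled by TMM (factors 0.970 to 1.02) and tested with edgeR 4.0.16 in R 4.3.3 (robust glmQLFit, then a two-sided glmQLFTest). P-values were adjusted by Benjamini-Hochberg over the whole table, at a threshold of 0.05. For usage, the gene-level F test of diffSpliceDGE was taken. Log2 fold changes are caffeine minus vehicle, and CPM were computed from TMM-scaled library sizes. The SE of an edgeR fold change was derived from the test, as its absolute value divided by the square root of the F statistic. RPKM used GENCODE vM21 transcript lengths, matched by RefSeq accession and corrected for differing ends. The common biological coefficient of variation was 0.145. Values were given per library for the 3 highest genes of each class by RPKM and for genes with an unadjusted p under 0.05 or a fold change of at least 0.5 (log2); Itga1, Itga2b, Itga4, Itgal and other genes are named outside this rule. The alternatives tried were scaling by RLE, by the upper quartile or not at all, a filter of 5 CPM in 2 libraries or none, DESeq2 1.42.0, limma-voom (limma 3.58.1), no robust estimation, an FDR of 0.1, the replicate number as a block, the Ensembl tables, the Simes adjustment and leaving out each library. The genes, gene lists and tests were chosen with earlier results of these data known. The steps were tested on simulated data. The values of 1 gene are counted in the totals but not reported here.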

Additional observations from a re-analysis of the deposited data

How the results depend on the processing

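No integrin or laminin gene or RefSeq transcript passed FDR 0.05 under any alternative run. The number of all RefSeq genes past FDR 0.05 was 1, and 6 with no low-count filter, 18 with DESeq2, 52 with the replicate block, 2 on the Ensembl table, and 0 to 18 when 1 library was left out. Of the integrin and laminin genes, 4 had an unadjusted p under 0.05, 7 with the replicate block, and 0 (without vehicle library 1) to 8 (without vehicle library 2) when 1 library was left out. Their number with shifted RefSeq transcript usage was 1, and 0 with the replicate block or the Simes adjustment, 3 on the Ensembl table, and 0 to 2 when 1 library was left out; the Itga9 adjusted p was 0.142 with the block. On the Ensembl table it was 3, and 0 with the block and 0 to 4 when 1 library was left out. By direction, the 7 genes at an unadjusted p under 0.05 with the replicate block were 6 higher and 1 lower in caffeine. The main fit had 1 higher and 3 lower, and limma-voom had 3 higher and 3 lower. The share of all tested genes at that threshold with the block or limma-voom is not given here. The cause of these differences was not tested. Whether the replicate numbers pair the samples is not known: no label says so, the groups share 2 numbers, and the deviations correlated at -0.029 between caffeine and vehicle libraries 1 and at 0.176 between caffeine and vehicle libraries 2, against 0.164 between caffeine library 3 and vehicle library 1. The deviations of the 2 vehicle libraries mirror each other.

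Of 465 alternative log2 fold changes of single genes and of the short Itga9 transcript, 433 kept their direction and 32, in 14 genes, did not. With no scaling, which moved the median of all genes to 0.0732, Itga5 (0.0424), Itgb5 (0.0244), Lama2 (0.0436) and Lamb1 (0.0025) turned positive. Itga2 was -0.0075 with DESeq2 and Itga4 -0.0128 with limma-voom. With the replicate block Itga4 was -0.1511, Itgb5 0.0293, Lama2 0.1384 and Lamb1 0.0010. Leaving out 1 library gave ranges across 0 of -0.12 to 0.62 for Itga1, -0.31 to 0.62 for Itga11, -0.71 to 1.45 for Itga2, -0.87 to 0.18 for Itga2b, -0.31 to 0.57 for Itga4, -0.0713 to 0.0076 for Itga5, -0.19 to 0.62 for Itga8, -0.30 to 0.12 for Itgav, -0.65 to 0.12 for Itgb4, -0.21 to 0.125 for Itgb5, -0.29 to 0.149 for Lama1, -0.45 to 0.28 for Lama2, -0.15 to 0.0047 for Lamb1 and -0.26 to 0.16 for Lamb3. With 1 vehicle library left, that library is assumed to vary like the caffeine group.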
